A study of Mus musculus with 6 samples.

Results

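The aldo-keto reductase genes described here are Akr1d1, the Akr1c genes Akr1c12, Akr1c13, Akr1c14, Akr1c18 and Akr1c19, and the Akr1b genes Akr1b3 and Akr1b8. They were taken by gene symbol from the array's annotation, using probe sets that carry a single symbol and the brightest probe set per gene. Of the 8 genes, 7 were measured in this way among 19938 genes tested, each by 1 probe set, and Akr1b3, which encodes aldose reductase, was not analysed here. The probe sets were chosen by their mean intensity over the 6 arrays, and the genes were selected with the levels and differences of these arrays known, so the members' values and p-values are a description.

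The arrays measured RNA of cultured keratinocytes, which build the epidermis, from the skin of C57BL/6 mouse embryos at E18.5 and labelled female. DKO cells carried Ovol2flox/- with the K14-Cre transgene on an Ovol1-/- background, which removes Ovol2 in cells where the keratin promoter drives Cre. Ovol1 KO cells were Ovol1-/-. Control cells had the Ovol2flox/+ allele combined with K14-Cre or with Ovol1+/-, so some control mice may have lacked 1 copy of Ovol1. Cells of every group grew for 2 to 5 days before calcium, an inducer of differentiation, was added, and for 3 to 5 days afterwards. Each group has 2 arrays, called replicates 1 and 2 as in the labels, and each array pools 2 mice. Values are log2(intensity + 16), and a gene was called at a limma adjusted p below 0.05 over all genes.

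Aldo-keto reductases are cytosolic enzymes that use NADPH to reduce carbonyl groups. Akr1d1 encodes the steroid beta-reductase of the liver, which acts in bile acid synthesis and steroid breakdown. Akr1c genes encode hydroxysteroid dehydrogenases, which switch steroid hormones and prostaglandins between active and inactive forms. Akr1b genes encode aldose reductase and its relatives, which reduce sugars, retinaldehyde and aldehydes from oxidised lipids. In skin, such enzymes meet local steroids, retinoids and prostaglandins.

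All 8 keratinocyte markers were measured, and their summed intensity ran from 62116 to 65483 over the 6 arrays, with 1 of them, Itgb4, called lower in DKO against control (-0.79, limma adjusted p = 0.03) and against Ovol1 KO (-0.77, limma adjusted p = 0.04). Xist, an RNA of female cells, lay at 12.12 and 12.26 in DKO, at 4.59 and 11.97 in Ovol1 KO and at 4.71 and 4.65 in control arrays. Y-linked Kdm5d was high on the 3 arrays with low Xist, which goes against their female label. The 2 DKO arrays have high and the 2 control arrays low Xist, so sex and genotype cannot be told apart in that comparison. The summed intensity of 8 melanocyte markers was 1875 and 1081 in DKO, 6729 and 1497 in Ovol1 KO and 5122 and 1409 in control arrays, so it was higher in replicate 1 of each group. The summed intensity of 8 fibroblast markers was 5399 and 5549 in DKO, 2064 and 1442 in Ovol1 KO and 2320 and 1628 in control arrays, and in DKO against control Postn was called higher and Pdgfra lower. The sum of 6 immune markers ran from 594 to 791. Ovol1 lay at 10.58 and 10.59 in DKO, 10.53 and 10.22 in Ovol1 KO and 10.27 and 9.85 in control arrays. Ovol2 lay at 8.71 and 8.32 in DKO, 9.0 and 8.99 in Ovol1 KO and 8.12 and 8.82 in control arrays. Neither targeted gene was lower in DKO than in control by these probe sets (log2 fold changes 0.53 and 0.04, neither called). Against Ovol1 KO, Ovol2 was lower on both DKO arrays, with a log2 fold change of -0.48 that was not called (limma adjusted p = 0.52). The place of the probe sets relative to the deleted parts is not known here, so they check no label.

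Akr1d1 rose in DKO keratinocytes against both other groups, and Akr1c18 had its lowest values there without passing the test. The other 5 measured members varied by 0.3 to 0.79 log2 units over all 6 arrays. Of the 7 members, 1 was called in DKO against control, where 3.2% of all genes were called. That member was higher, as were 0.943% of all genes, and 0 were lower, where 2.26% of all genes were. In DKO against Ovol1 KO 1 member was called, where 2.15% of all genes were. It was higher, as were 0.657% of all genes, and 0 were lower, where 1.49% were. In Ovol1 KO against control limma called 0 members and 0% of all genes, with 162 genes at an unadjusted p below 0.05. The single called member in both comparisons was Akr1d1.

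**Figure D1:**
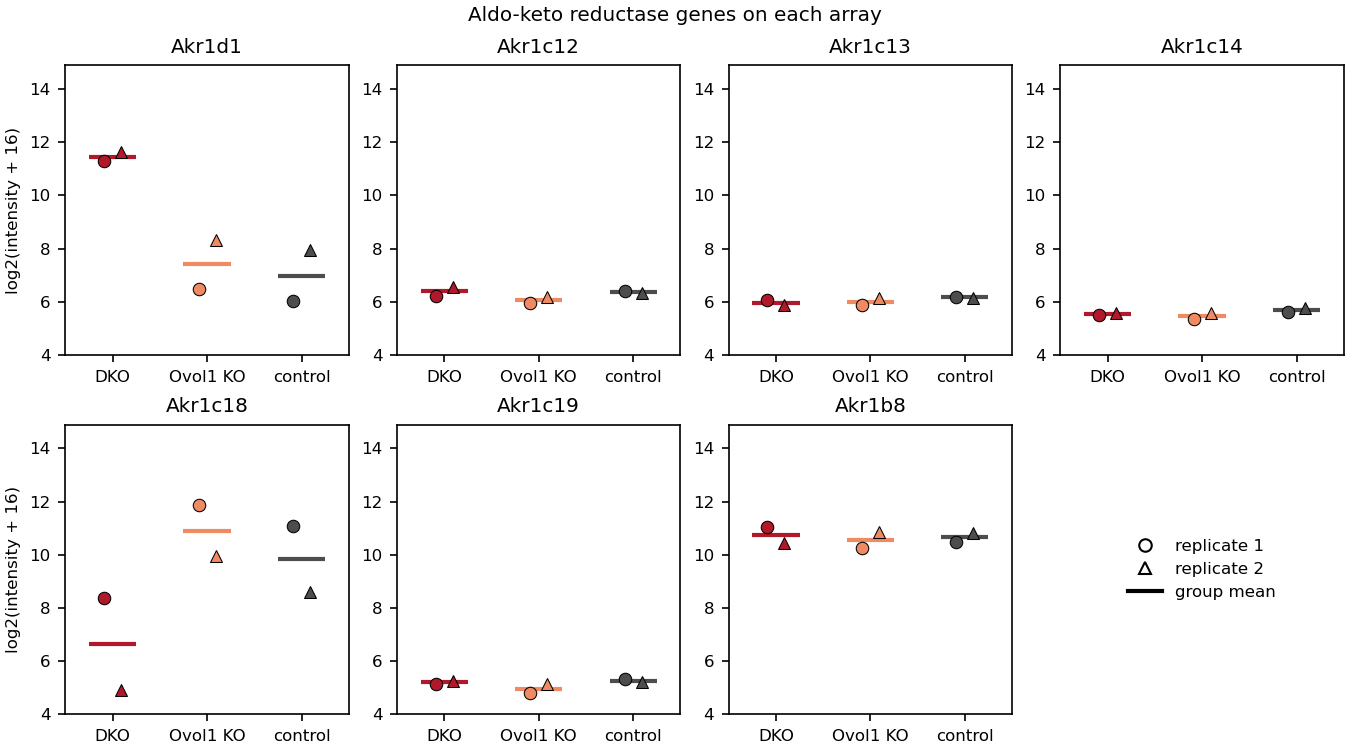
Levels of the 7 measured aldo-keto reductase genes, as log2(intensity + 16) on each array, by group, with circles for replicate 1, triangles for replicate 2 and a bar for the group mean of 2 arrays. Akr1d1 lies at 11.30 and 11.62 in DKO and no higher than 8.32 elsewhere, Akr1c18 is lower in replicate 2 of every group, and the other genes are nearly level.

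Akr1d1 lies on chromosome 6 at chr6:37529978-37574921 of GRCm38.p6, apart from the Akr1c genes. Its deposited intensities were 2505 and 3013 in DKO, 81.0 and 301.1 in Ovol1 KO and 44.6 and 233.4 in control arrays. On the log2 scale the levels were 11.30 and 11.62 in DKO, 6.49 and 8.32 in Ovol1 KO and 6.02 and 7.95 in control arrays. Both DKO arrays were therefore above all 4 other arrays, while the Ovol1 KO and control arrays overlapped. Replicate 1 minus replicate 2 was -1.83 in Ovol1 KO and -1.93 in control, so the replicates of these groups lay far apart.

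The mean of Akr1d1 was 11.46 ± 0.22 (SD, n = 2) in DKO, 7.4 ± 1.3 in Ovol1 KO and 6.98 ± 1.4 in control. Akr1d1 rose in DKO against control by a log2 fold change of 4.48 (SE 0.74, limma adjusted p = 0.028), a 22.3-fold difference on the offset scale. That size depends on single control arrays and on the offset: it was 3.51 without control 1, 5.44 without control 2, 4.70 when the offset was 1 and 3.97 when it was 64. The levels of control 1 and Ovol1 KO 1 lie below the 25th percentile of gene means (6.87), where a low signal cannot be told from background, so the folds are not exact. Against Ovol1 KO it rose by 4.06 (SE 0.74, limma adjusted p = 0.048), a 16.6-fold difference. In Ovol1 KO against control the log2 fold change was 0.42 (SE 0.74) and was not called. In order of level, DKO thus came first, and Ovol1 KO and control were not told apart beyond their spread.

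The call of Akr1d1 rests on few arrays. In DKO against control it was lost without DKO 1 (log2 fold change 4.63, adjusted p = 0.135) and without DKO 2 (4.32, adjusted p = 0.14), within a range from 0.0018 to 0.14 over all alternatives. In DKO against Ovol1 KO it was lost when any DKO or Ovol1 KO array was left out, when the dimmest 30% of genes were left out, with an offset of 1 and without a variance trend. Over these and the other alternatives its limma adjusted p in that comparison ran from 0.0022 to 0.29. The 3 arrays with high Xist include Ovol1 KO 2, and against that array alone Akr1d1 was 3.14 higher in DKO (adjusted p = 0.29). Among the 3 arrays with low Xist, the difference of Ovol1 KO 1 from the control mean was -0.50. The summed fibroblast markers were also higher in DKO, with Postn at 11.14 and 10.49 in DKO against 7.38 and 5.94 in control arrays. Col1a1 lay at 8.47 and 8.91 in DKO against 8.43 and 8.55 in control arrays. The part of such cells in the Akr1d1 values was not tested. In RNA from mixed cells, more cells of a type and more RNA per cell cannot be told apart.

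Akr1c18 encodes a hydroxysteroid dehydrogenase that inactivates progesterone in the mouse ovary. It lies at chr13:4132615-4150646, on the minus strand, within the Akr1c cluster. Its deposited intensities were 310.0 and 14.6 in DKO, 3753 and 967.2 in Ovol1 KO and 2209 and 371.4 in control arrays. The log2 levels were 8.38 and 4.91 in DKO, 11.88 and 9.94 in Ovol1 KO and 11.09 and 8.60 in control arrays. Replicate 1 exceeded replicate 2 in every group, by 3.47 in DKO, 1.94 in Ovol1 KO and 2.48 in control. Both DKO arrays lay below all 4 others, although DKO 1 was only just below control 2.

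The mean of Akr1c18 was 6.64 ± 2.5 (SD, n = 2) in DKO, 10.91 ± 1.4 in Ovol1 KO and 9.84 ± 1.8 in control. DKO against control gave a log2 fold change of -3.20 (SE 1.3), which was not called (limma adjusted p = 0.31). For DKO against Ovol1 KO it was -4.27 (SE 1.3), likewise not called (limma adjusted p = 0.20). In Ovol1 KO against control it was 1.07 (SE 1.3), with overlapping groups. The difference between DKO and control was -1.46 without DKO 2 and -4.93 without DKO 1. It was -1.96 without control 1 and -4.44 without control 2, so its size changed with the array left out. With the replicate number as a block, Akr1c18 was called in DKO against control (limma adjusted p = 0.0094) and against Ovol1 KO (limma adjusted p = 0.0054). The shared replicate numbers did not establish pairs. DKO against Ovol1 KO was called in the fit of those 4 arrays alone (adjusted p = 0.047) and without either control array, within a range of limma adjusted p from 0.0054 to 0.83 over all alternatives. Against Ovol1 KO 2, the array that like DKO has high Xist, the difference of Akr1c18 in DKO was -3.30. The sum of the melanocyte markers was, like Akr1c18, higher in replicate 1 of each group, although single markers such as Sox10 in DKO (8.46 and 8.73) were not. The sum was also lower in each DKO array than in the same-numbered arrays of the other groups. Kit, 1 of the 8, was called lower in DKO against control (limma adjusted p = 0.035) and against Ovol1 KO (limma adjusted p = 0.011). Most of the 8 overlapped between DKO and control. In replicate 2 Tyrp1 was nearly level, at 5.72 in DKO, 5.63 in Ovol1 KO and 5.81 in control. The part of melanocytes in the Akr1c18 values was not tested. In DKO 2 the intensity of 14.6 is under the offset of 16, and no detection call tells whether it was above background.

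**Figure D2:**
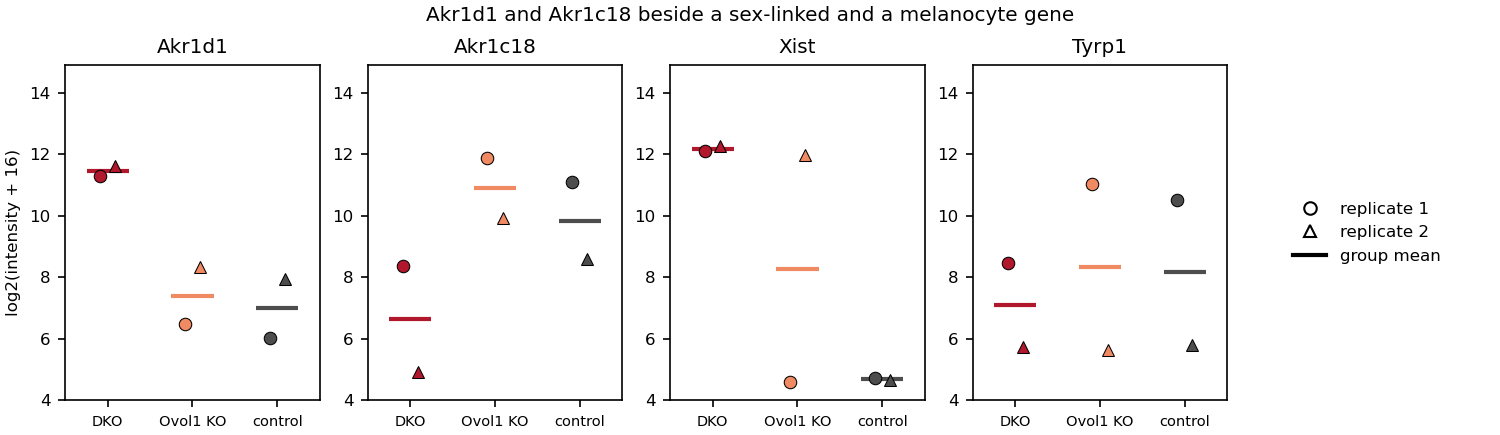
Akr1d1 and Akr1c18 beside Xist and the melanocyte gene Tyrp1, as log2(intensity + 16) on each array, by group, with circles for replicate 1, triangles for replicate 2 and a bar for the group mean of 2 arrays. Xist is near 12 on both DKO arrays and on Ovol1 KO 2, and Tyrp1 is higher in replicate 1 of each group, as Akr1c18 is.

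Promoter sequences of these members are shown because Akr1d1 and Akr1c18 are the genes whose levels differ most between arrays. They are taken from RefSeq on GRCm38.p6, where all 7 measured members matched, and cover the 250 bases before an annotated transcript start, in the direction of transcription. The Akr1d1 window is chr6:37529923-37530172 on the plus strand, and another annotated start of this gene lies within it. The Akr1c18 window is chr13:4150647-4150896 on the minus strand.
Akr1d1: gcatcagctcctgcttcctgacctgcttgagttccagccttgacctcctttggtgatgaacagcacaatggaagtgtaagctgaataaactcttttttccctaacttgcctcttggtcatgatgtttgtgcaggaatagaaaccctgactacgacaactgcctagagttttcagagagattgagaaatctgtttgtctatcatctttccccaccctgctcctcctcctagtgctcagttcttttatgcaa
Akr1c18: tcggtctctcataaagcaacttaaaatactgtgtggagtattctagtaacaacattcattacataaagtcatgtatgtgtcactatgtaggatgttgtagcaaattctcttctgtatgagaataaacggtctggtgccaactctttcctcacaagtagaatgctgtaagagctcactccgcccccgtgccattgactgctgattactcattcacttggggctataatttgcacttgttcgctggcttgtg
A search of both strands for CCGTTA, a core bound by OVOL proteins, found 0 of the 7 members' windows with a match, against 2.18% of 32851 mouse windows of this length. TGACNNNGC, the core of the antioxidant response element, matched 0 of the 7 windows, against 10.2% of all windows. CAGGTG, an E-box that ZEB factors bind, matched 1 of the 7, that of Akr1c19, against 17.2% of all windows. The windows of Akr1c13, Akr1c14 and Akr1c19 reach past the first annotated base of their gene. By that annotation they lie partly or wholly inside the gene, and so does the Akr1c19 match. A match describes these letters in this window and is no evidence of binding, and the absence of one says nothing about a factor.

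The remaining Akr1c members lie with Akr1c18 on chromosome 13, where the 5 measured Akr1c members span positions 4048991 to 4279399. These genes are close paralogues, so a probe set may also read other copies. Akr1c12 and Akr1c13 had windows of 250 bases that were 92.5% identical in a global alignment, with 235 identical bases. The windows were taken before an annotated transcript start, so their identity does not tell what a probe set reads. The Akr1c12 window is chr13:4279400-4279649 on the minus strand and the Akr1c13 window chr13:4190937-4191186 on the plus strand. Capitals mark bases that differ between both sequences or have no partner in the alignment.
Akr1c12: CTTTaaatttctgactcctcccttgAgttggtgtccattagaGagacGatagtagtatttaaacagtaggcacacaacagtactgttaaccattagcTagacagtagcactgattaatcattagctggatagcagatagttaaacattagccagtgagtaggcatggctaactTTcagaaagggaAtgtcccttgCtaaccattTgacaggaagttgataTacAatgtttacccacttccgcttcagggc
Akr1c13: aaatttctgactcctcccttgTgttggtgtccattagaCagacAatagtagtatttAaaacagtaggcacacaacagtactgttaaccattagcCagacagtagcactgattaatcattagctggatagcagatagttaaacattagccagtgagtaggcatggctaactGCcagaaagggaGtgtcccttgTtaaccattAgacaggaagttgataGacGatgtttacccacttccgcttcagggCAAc
The next closest pair of members, Akr1c13 and Akr1c19, had windows of 59.0% identity.

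Akr1c12 lay at 6.23 and 6.57 in DKO, 5.96 and 6.18 in Ovol1 KO and 6.39 and 6.32 in control arrays. Its DKO arrays were above the Ovol1 KO arrays but overlapped the controls. Akr1c13 lay at 6.05 and 5.89 in DKO, 5.89 and 6.13 in Ovol1 KO and 6.19 and 6.16 in control arrays. Both controls lay above the other arrays, by very little. Akr1c14, which encodes an alpha-hydroxysteroid dehydrogenase, lay at 5.49 and 5.56 in DKO, 5.37 and 5.59 in Ovol1 KO and 5.60 and 5.75 in control arrays. Akr1c19 lay at 5.14 and 5.25 in DKO, 4.79 and 5.14 in Ovol1 KO and 5.32 and 5.21 in control arrays, so that DKO and control overlapped.

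None of these 4 genes was called in any of the 3 comparisons. Their log2 fold changes in DKO against control were 0.05 for Akr1c12 (SE 0.17), -0.20 for Akr1c13 (SE 0.15), -0.15 for Akr1c14 (SE 0.14) and -0.07 for Akr1c19 (SE 0.15), and that of Akr1c19 was 0.002 with the values as deposited. Against Ovol1 KO they were 0.33, -0.04, 0.05 and 0.23 in the same order of genes. All 4 averaged below the 25th percentile of gene means, and Akr1c14 and Akr1c19 below the 5th percentile of 5.58. At such levels the offset compresses differences, and a gene at background cannot be told from one with a low signal.

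Akr1b8, an aldose reductase relative induced by fibroblast growth factor in mouse fibroblasts, lies at chr6:34354146-34368461. It had levels of 11.05 and 10.45 in DKO, 10.27 and 10.87 in Ovol1 KO and 10.47 and 10.83 in control arrays. All 3 groups overlapped. The log2 fold change was 0.10 in DKO against control (SE 0.29), -0.08 in Ovol1 KO against control (SE 0.29) and 0.18 in DKO against Ovol1 KO (SE 0.29). Replicate 1 minus replicate 2 was 0.60 in DKO, -0.61 in Ovol1 KO and -0.36 in control, larger than the differences between groups.

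Groups without overlap were common over all genes and are read against that share. Between DKO and control, 1 of 7 members was higher without overlap and 3 were lower (Akr1c13, Akr1c14 and Akr1c18), where 23.1% of all genes were higher and 21.5% lower in this way. Between Ovol1 KO and control, 0 members were higher and 4 lower without overlap, where 5.8% and 18.3% of all genes were. Those 4 were Akr1c12, Akr1c13, Akr1c14 and Akr1c19, with log2 fold changes from -0.30 to -0.16. Between DKO and Ovol1 KO, 3 members were higher (Akr1d1, Akr1c12 and Akr1c19) and Akr1c18 lower, where 26.1% and 16% of all genes were. The median log2 fold change of the 7 members was -0.07 in DKO against control, -0.16 in Ovol1 KO against control and 0.18 in DKO against Ovol1 KO, beside medians of 0.02, -0.06 and 0.09 over all genes.

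**Figure D3:**
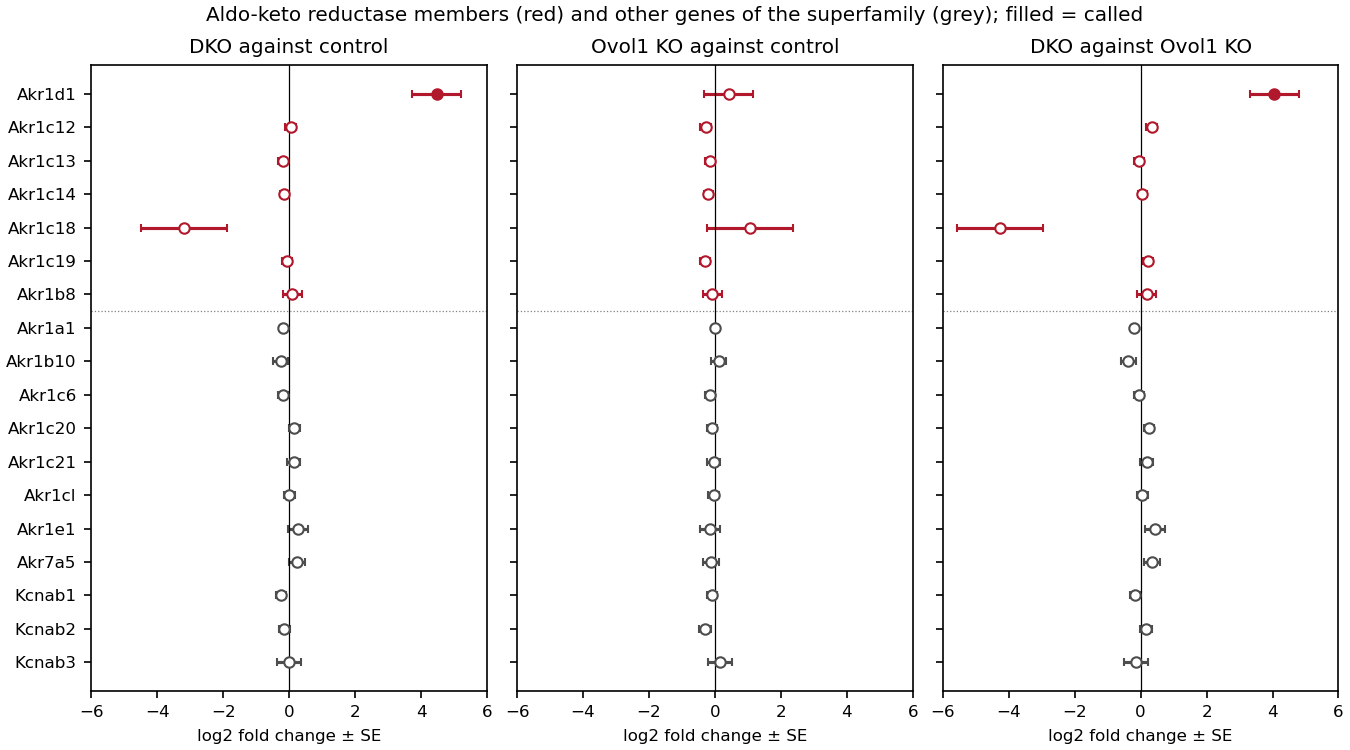
Log2 fold changes with their limma SE for the 7 members (red, above the dotted line) and 11 other genes of the superfamily (grey), 1 panel per comparison, filled where called. Akr1d1 at 4.48 and 4.06 is the one filled point in the panels with DKO, and Akr1c18 at -3.20 and -4.27 has the widest error bars.

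Of 12 other genes of the aldo-keto reductase superfamily, 11 were measured and 0 were called in any comparison in limma. Akr1b7 was not analysed here. At an unadjusted p below 0.05 there was 1 in each DKO comparison and 0 in Ovol1 KO against control. Over all 19938 genes, 2888 in DKO against control and 2646 in DKO against Ovol1 KO had such a p. The 1 superfamily gene was Akr1a1, which encodes the aldehyde reductase that most tissues express. It lay at 12.88 and 12.84 in DKO, 13.05 and 13.06 in Ovol1 KO and 13.07 and 13.06 in control arrays, with a log2 fold change of -0.20 in DKO against control (SE 0.068, limma adjusted p = 0.22). The DKO arrays were both lower, by a small amount. Kcnab1, a potassium channel beta subunit of the same fold, had a log2 fold change of -0.25 in DKO against control (SE 0.15, adjusted p = 0.53). Akr1b10 had -0.37 in DKO against Ovol1 KO (SE 0.22, adjusted p = 0.55). Over the 11 genes the log2 fold changes ran from -0.26 to 0.27 in DKO against control, from -0.30 to 0.16 in Ovol1 KO against control and from -0.37 to 0.43 in DKO against Ovol1 KO. In Ovol1 KO against control the smallest p-values were those of Kcnab2, at -0.30, and Akr1c6, at -0.15.

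Genes linked to aldo-keto reductases by substrates or by the NRF2 pathway were described in 4 further lists, and not all of them encode enzymes. The prostaglandin list held genes of synthesis and breakdown, and also prostaglandin receptors and a transporter. Of its 22 measured genes, 1 rose and 0 fell in DKO against control, and 1 rose in DKO against Ovol1 KO. It was Hpgds, the haematopoietic prostaglandin D synthase, whose product is a substrate of some aldo-keto reductases. Hpgds lay at 11.26 and 10.97 in DKO, 9.58 and 8.93 in Ovol1 KO and 9.21 and 8.47 in control arrays. Both DKO arrays were above all others, and its log2 fold change was 2.28 from control (SE 0.32, limma adjusted p = 0.016). The one from Ovol1 KO was 1.86 (SE 0.32, limma adjusted p = 0.040). It lost its call against control without DKO 1 (2.13) or DKO 2 (2.42), and against Ovol1 KO without any 1 of those 4 arrays. Ptgs2, the inducible cyclooxygenase, lay at 9.99 and 11.86 in DKO against 13.18 and 13.05 in control arrays, with a log2 fold change of -2.19 that was not called (adjusted p = 0.10), and Hpgd, which breaks down prostaglandins, had -0.73 (adjusted p = 0.11).

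Of 25 measured aldehyde and alcohol dehydrogenase genes, 0 rose and 1 fell in DKO against control, and the same count fell against Ovol1 KO. Aldh1a3, which oxidises retinaldehyde to retinoic acid, fell in both. It lay at 8.93 and 8.16 in DKO, 12.64 and 11.67 in Ovol1 KO and 12.73 and 11.65 in control arrays. The DKO arrays were thus well below the others, by a log2 fold change of -3.65 from control (SE 0.46, limma adjusted p = 0.011). From Ovol1 KO it was -3.61 (SE 0.46, limma adjusted p = 0.014). Without DKO 2 the difference from control was -3.26 and not called, and the call from Ovol1 KO was lost without DKO 1 (-3.99), DKO 2 (-3.22) or Ovol1 KO 1 (-3.12). Aldh1a7 had a log2 fold change of -1.06 (adjusted p = 0.11) and Adh7, a retinol-oxidising alcohol dehydrogenase, 0.65 (adjusted p = 0.11) in DKO against control.

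Of 24 measured steroid-metabolizing enzyme genes, 0 were called in DKO against control in limma, and 1 rose in DKO against Ovol1 KO. In DKO against control 4 had an unadjusted p below 0.05, beside 2888 of all 19938 genes. The gene that rose was Cyp17a1, the steroid hydroxylase and lyase of androgen synthesis. It lay at 7.76 and 7.23 in DKO, 6.07 and 6.45 in Ovol1 KO and 6.45 and 6.32 in control arrays. It differed from Ovol1 KO by a log2 fold change of 1.24 (SE 0.23, limma adjusted p = 0.047). From control the difference was 1.12 (SE 0.23, limma adjusted p = 0.053). The Ovol1 KO and control levels of Cyp17a1 lie below the 25th percentile of gene means (6.87), where a low signal cannot be told from background. Its difference from Ovol1 KO ran from 0.88 to 1.43 over the alternatives other than leaving out single arrays. The call against Ovol1 KO was lost without any 1 of the 4 arrays compared and without a variance trend, while one against control was made with the values as deposited. Hsd11b1, which activates glucocorticoids, lay at 5.92 and 5.89 in DKO, 6.65 and 6.61 in Ovol1 KO and 7.61 and 6.67 in control arrays, with a log2 fold change of -1.24 against control that was not called (adjusted p = 0.081). H2-Ke6, a hydroxysteroid dehydrogenase gene, lay at 10.37 and 10.48 in DKO against 9.49 and 9.91 in control arrays and was not called (adjusted p = 0.28).

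Of 17 measured NRF2 pathway genes, the pathway of oxidative and electrophile stress that also drives several aldo-keto reductases, 1 rose and 1 fell in DKO against control, and 0 were called in DKO against Ovol1 KO in limma. At an unadjusted p below 0.05 the list had 10 genes in DKO against control, beside 2888 of all 19938 genes, and 6 in DKO against Ovol1 KO, beside 2646 of all genes. In DKO against control, 6 of 22 prostaglandin, 7 of 25 dehydrogenase and 4 of 24 steroid genes had such a p. In DKO against Ovol1 KO these counts were 5, 7 and 3. Gclm, a subunit of the enzyme that starts glutathione synthesis, lay at 10.99 and 11.22 in DKO against 10.14 and 10.17 in control arrays and rose by 0.95 (SE 0.16, adjusted p = 0.031). This call was lost without any single array, at 0.84 to 1.07, and in the fit of the 4 arrays alone. Hmox1, which encodes heme oxygenase, lay at 9.50 and 10.47 in DKO against 12.31 and 11.91 in control arrays, and fell by 2.13 on the log2 scale (SE 0.38, limma adjusted p = 0.036). Its call was lost without DKO 1 (log2 fold change -1.64) or control 1 (-1.92). Against Ovol1 KO, Hmox1 was called in the fit of those 4 arrays and without either control array. Me1, the NADPH-producing malic enzyme, had -0.72 in DKO against control and was not called (adjusted p = 0.092). The list's median log2 fold change in DKO against control was -0.27, beside 0.02 over all genes. The medians of the prostaglandin, dehydrogenase and steroid lists were -0.08, 0.01 and -0.07. In Ovol1 KO against control, limma called 0 genes of any of the 4 lists, and 0 had an unadjusted p below 0.05. Xist and the fibroblast marker sum given above separate the same DKO and control arrays, while single fibroblast markers such as Col1a1 overlap. The part of these differences in the lists was not tested.

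**Figure D4:**
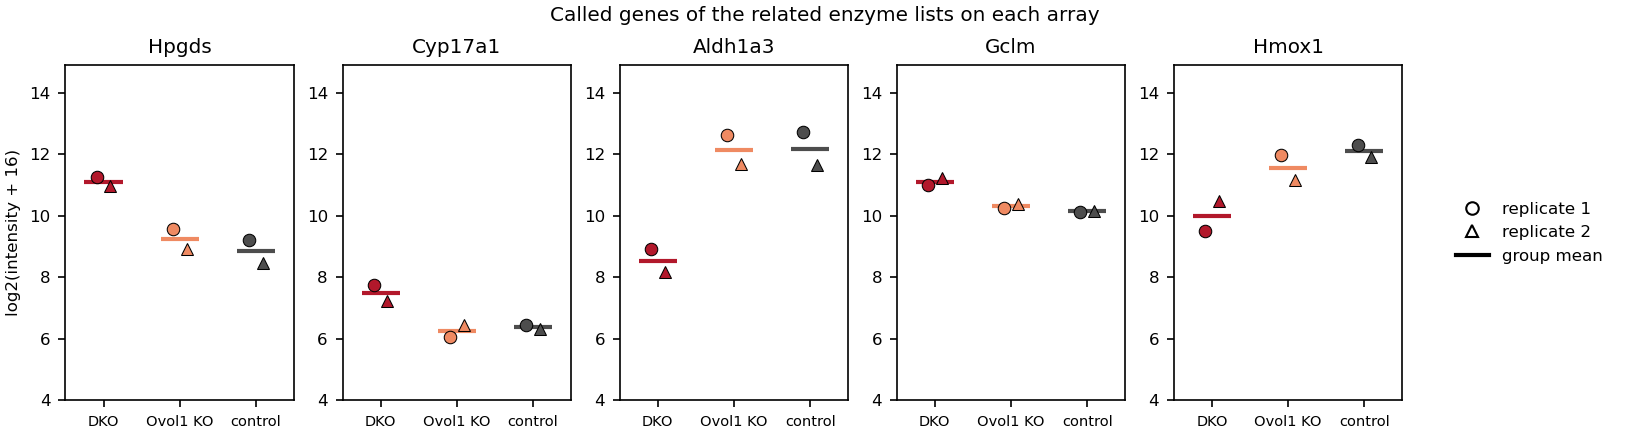
Levels of the 5 called genes of the further lists, as log2(intensity + 16) on each array, by group. Circles mark replicate 1, triangles replicate 2 and a bar the group mean of 2 arrays. Hpgds, Cyp17a1 and Gclm are higher and Aldh1a3 and Hmox1 lower on both DKO arrays than on the control arrays.

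Genes with the most similar course over the 6 arrays were found by the root mean square difference of the log2 levels, each centred on its gene's mean. Predicted genes, unnamed transcripts and genes with a range under a set fraction of the member's own were left out. For Akr1d1, among the 362 genes left, the closest were Dapl1 at 0.489 log2 units, the stefin gene Stfa2 at 0.564 and the metalloproteinase gene Mmp27 at 0.626. Dapl1 lay at 11.39 and 12.19 in DKO, 7.62 and 9.66 in Ovol1 KO and 7.29 and 8.24 in control arrays, and so shared with Akr1d1 the higher value in replicate 2. For Akr1c18 the closest were Id2, an inhibitor of helix-loop-helix factors, at 0.765, the simple epithelium keratin gene Krt18 at 0.783 and Fxyd5 at 0.853. Id2 lay at 10.47 and 6.75 in DKO, 11.83 and 11.24 in Ovol1 KO and 11.90 and 10.62 in control arrays. These 6 arrays also share the differences in Xist and melanocyte markers, and likeness over them is a description.

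**Figure D5:**
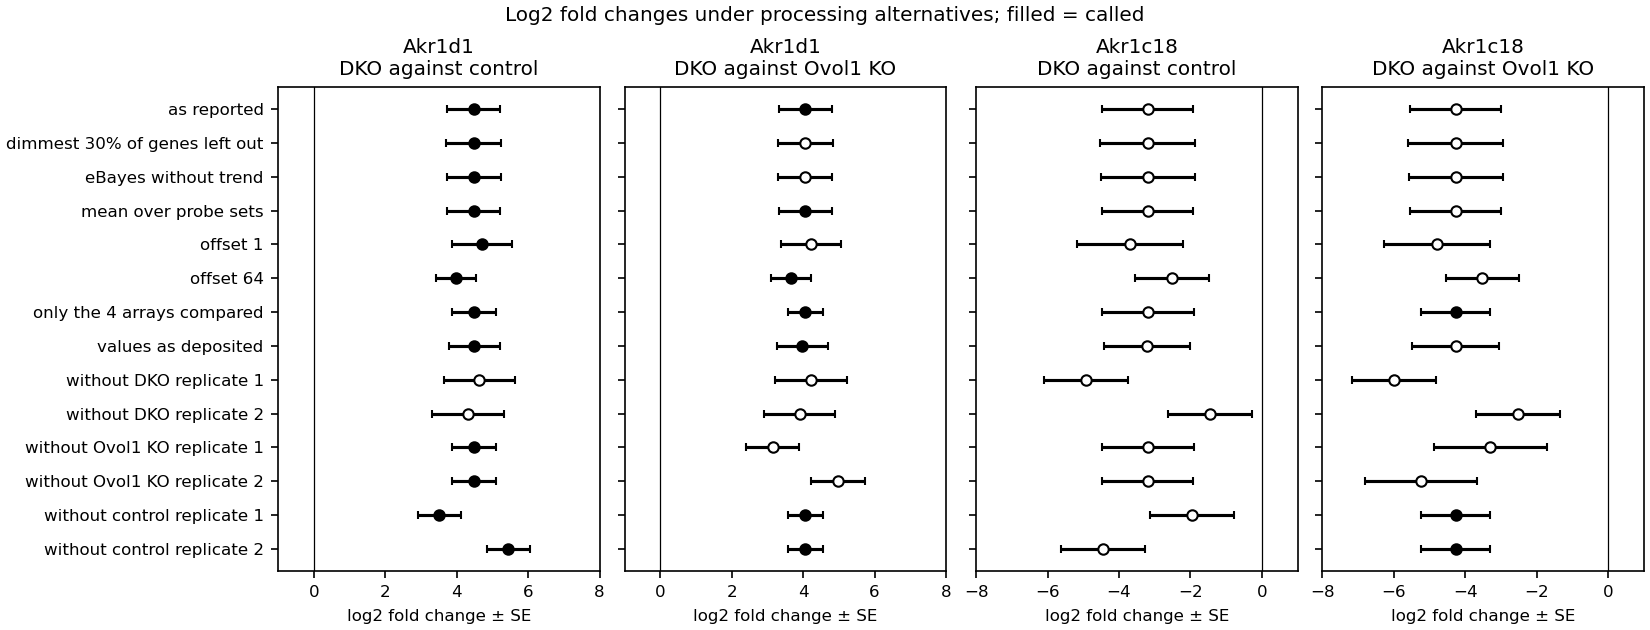
Log2 fold changes with their limma SE for Akr1d1 and Akr1c18 in DKO against control and against Ovol1 KO, as reported and under the processing alternatives, filled where called. The fit with the replicate number as a block is not shown. Akr1d1 stays between 3.14 and 5.44 and Akr1c18 at -1.46 or below, so neither changes direction in the settings shown, while the calls of Akr1d1 vary in both comparisons and those of Akr1c18 in DKO against Ovol1 KO.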

How the data were processed

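RNA was measured on 6 Affymetrix whole-transcript arrays, 2 per group. The authors deposited linear intensities per probe set. PLIER 2.0 and Affymetrix Expression Console 1.1.1 appear in the submitters' processing notes, without their roles. Their background correction, normalization and filters are unknown here. The table holds 35556 probe sets and no detection call, and the number of arrays limits the precision.

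From these, log2(intensity + 16) was computed and quantile-normalized, because the arrays' quartiles differed by up to 0.218. Of the probe sets, 21789 carry 1 symbol in the platform annotation, 1621 several and 12146 none here. The brightest probe set per gene was tested. limma 3.58.1 in R 4.3.3 fitted a mean per group over all 6 arrays, with a variance trend and Benjamini-Hochberg adjustment over 19938 genes. The spread is shared by the 3 groups, with 3 residual and 3.89 prior degrees of freedom. DKO against control data on 19938 genes were simulated in 10 draws, with 200 changed genes and noise drawn independently for each array. Of the changes, 20.4% of 2-fold and 75.9% of 4-fold ones were recovered, with 4 false calls per draw. Deviations shared between arrays were not simulated, so these rates need not hold for the real arrays.

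The members and lists were chosen with earlier results of these data known. Named genes were all members, then for the other superfamily genes the called ones or the 2 with the smallest p in each comparison, and for each other list up to 3 with the smallest p, some of which are given by count alone. The labels call the arrays biological replicates.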

Additional observations from a re-analysis of the deposited data

How the results depend on the processing

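Akr1d1 and Akr1c18 kept their direction in both DKO comparisons under every alternative tried. Of 282 recomputed member differences, 9 lost and 5 gained a call, and 14, all of differences not called, changed sign. With single arrays left out, the count of called members ran from 0 to 1 in DKO against control and from 0 to 2 in DKO against Ovol1 KO, and stayed at 0 in Ovol1 KO against control. In DKO against Ovol1 KO it was 0 with an offset of 1, without a variance trend or without the dimmest 30% of genes (which leaves 3 members), and 2 in the fit of those 4 arrays. Over all genes, 639 were called in DKO against control, and 258 (without DKO 1) to 735 (without control 2) with single arrays left out, 309 without DKO 2. In DKO against Ovol1 KO 429 were called, 738 in the fit of the 4 arrays, and 88 (without Ovol1 KO 1) to 738 (without control 1) with single arrays left out, 734 without control 2, 195 without DKO 1, 232 without DKO 2 and 217 without Ovol1 KO 2. In Ovol1 KO against control, 0 to 4 were called with single arrays left out, the 4 without Ovol1 KO 1. The cause of these changes was not tested.

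The shared replicate numbers did not establish pairs. The differences between replicates 1 and 2 correlated across genes at 0.151 between DKO and control, 0.0875 between DKO and Ovol1 KO and 0.687 between Ovol1 KO and control. With the replicate number as a block, 2 members were called in each DKO comparison, Akr1d1 and Akr1c18, and 1069 and 805 genes over all. The limma adjusted p of Akr1c18 was then 0.00938 in DKO against control and 0.00541 in DKO against Ovol1 KO, and Gclm was also called in DKO against Ovol1 KO (0.78, adjusted p = 0.0406). The alternatives for the other superfamily genes and the called list genes were chosen after seeing the data. Of 654 such values for 16 genes, 24 lost a call, 5 gained one and 0 of the called ones changed sign. Low levels limit what can be read for Akr1c12, Akr1c13, Akr1c14 and Akr1c19.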
